A study of Mus musculus with 33 samples.

Results

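The genes described here are 10 genes of endothelial and blood development, chosen by symbol and all listed among the 16336 genes of the deposited expression table: the endothelial surface genes Kdr, Pecam1 and Cdh5, the transcription factors Etv2, Tal1, Gata1, Gata2 and Runx1, and the embryonic globins Hbb-bh1 and Hba-x. Their messenger RNA was measured by RNA sequencing in 33 libraries of mouse embryonic stem (ES) cells and of the embryoid bodies (EBs) made from them. E14Tg2a is the wild-type ES line, and ΔK9.1 and ΔK9.2 are clones of it, each a single clone, that carry a homozygous CRISPR/Cas9 deletion of the stretch between the Nanog promoter and its upstream enhancer where histone H3 carries trimethylated lysine 9 (H3K9me3), a mark of silent chromatin. Each line was sampled undifferentiated in serum with leukaemia inhibitory factor (LIF), as day 0, and on days 4, 6 and 8 of EB differentiation in serum without LIF. By the study's methods the aggregates were kept in suspension up to day 4 and then plated on gelatine, so the step from day 4 to day 6 also holds a change of culture format in all lines. Each of the 12 groups of line and day held 3 libraries, numbered by replicate, except on day 6, where replicates 2 and 3 were analysed here. No other agent is named for any group at sampling. Beside carrying the deletion, the clones had gone through transfection with Cas9 and guide vectors, puromycin selection, sorting and growth from clonal density, and the effects of these steps and of the deletion cannot be told apart here. In both clones genes of 1 stretch of chromosome 14 (50 to 80 Mb) also stood lower on day 0: of 155 with a day 0 mean of at least 5 TPM, 145 had a level below E14Tg2a for ΔK9.1, as did 150 for ΔK9.2 (median log2 fold change -0.64 and -0.56, beside 0.07 and 0.05 over all 10102 such genes). None of the 10 members lies there.

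Blood and endothelium arise together from mesoderm that carries Kdr (also FLK1), the receptor for vascular endothelial growth factor (VEGF). In this mesoderm the ETS factor Etv2 acts briefly and switches on endothelial and blood genes, after which Tal1 and Gata2 take cells towards blood, Runx1 towards definitive blood cells, and Gata1 towards red cells and megakaryocytes. The first red cells of the mouse embryo form in the yolk sac and make the embryonic globins Hbb-bh1 and Hba-x, while endothelial cells are joined by the surface proteins Cdh5 (VE-cadherin) and Pecam1 (CD31). Pecam1 is also carried by undifferentiated mouse ES cells, so it marks 2 kinds of cell in an EB culture. An EB is a mixture of cell types, and in such bulk samples fewer cells of a type and less RNA per cell cannot be told apart.

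The 10 genes lie on 8 chromosomes of the mm10 assembly, as placed by GENCODE. Kdr is at chr5:75932827-75978458 and Pecam1 at chr11:106654217-106750628, both on the minus strand, and Cdh5 is at chr8:104101625-104144511 on the plus strand. Of the transcription factors, Etv2 is at chr7:30633616-30635852, Gata1 at chrX:7959260-7978071 and Runx1 at chr16:92601466-92826149 on the minus strand, and Tal1 at chr4:115056426-115071755 and Gata2 at chr6:88193891-88207032 on the plus strand. The globins are at chr7:103841637-103843164 (Hbb-bh1, minus strand) and chr11:32276400-32278116 (Hba-x, plus strand). The 250 bases upstream of the start site of Tal1 (chr4:115056176-115056425, plus strand) and of Etv2 (chr7:30635853-30636102, minus strand) are shown from RefSeq (GRCm38.p6), 5′ to 3′, because these were 2 of the 5 members called higher by day 6 in E14Tg2a. Capitals mark the letters GATAA, the core read by GATA factors, and GGAAG, a core read by ETS factors, on either strand.
Tal1: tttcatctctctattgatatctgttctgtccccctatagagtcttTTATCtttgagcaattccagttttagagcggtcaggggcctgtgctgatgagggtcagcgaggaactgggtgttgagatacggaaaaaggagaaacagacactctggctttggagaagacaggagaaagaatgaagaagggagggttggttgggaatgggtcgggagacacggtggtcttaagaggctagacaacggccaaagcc
Etv2: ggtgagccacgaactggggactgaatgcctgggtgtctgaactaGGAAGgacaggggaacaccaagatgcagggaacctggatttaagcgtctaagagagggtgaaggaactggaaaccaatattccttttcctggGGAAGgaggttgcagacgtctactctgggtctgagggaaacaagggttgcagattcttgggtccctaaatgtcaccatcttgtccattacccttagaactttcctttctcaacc
Upstream windows of this length were at hand for 7 members (Kdr, Etv2, Tal1, Gata1, Gata2, Runx1 and Hba-x), with 10 windows in all, since some have more than 1 start. GATAA or its reverse complement TTATC stood in 2 of the 10 windows (Tal1 and Hba-x), beside 22.6% of the 32851 windows of all genes, and GGAAG on either strand in 5 of the 10, beside 64.1%. CACCC, the core read by KLF factors, was found in 7 of the 10 windows and in 52.0% of all windows. The E-box CANNTG stood in 4 of the 10 windows and in 66.2% of all, and TATAAA in 1 of the 10 and in 12.4% of all. These matches are a description of letters only.

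Levels are in TPM, transcript abundances scaled to a fixed total per library, which divide by transcript length and can be set side by side between genes, and libraries are given in the order of their replicate numbers. The table listed only genes whose mean reached 1 TPM in at least 1 group, a filter that all 10 members passed. The TPM of a library summed to between 994284 and 998266, and between 12903 and 13905 genes reached 1 TPM in a library. No library total of reads can be had from TPM, so the depth of each library is unknown. The study's methods give only an approximate read number common to all libraries. Nanog, whose locus carries the deletion, stood on day 0 at 344 ± 21.2 TPM (SD, n = 3) in E14Tg2a, with 468 ± 16.2 TPM for ΔK9.1 and 426 ± 13.4 for ΔK9.2. Fold changes are differences of log2(TPM + 1) from a limma fit over all 33 libraries, a scale that understates the change of low genes, and a gene is called higher or lower where its p-value, adjusted by Benjamini-Hochberg over all 16336 genes, is under 0.05 and its log2 fold change is past 1.

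In E14Tg2a the members passed the test against day 0 on different days: Kdr, Etv2, Tal1, Runx1 and Hbb-bh1 were called higher than on day 0 by day 6, and Cdh5, Gata1, Gata2 and Hba-x on day 8 only (the plot of all libraries by day). With a pseudocount of 0.1 Cdh5 was called on day 6 too (log2 fold change 2.70, limma adjusted p = 0.0248). These days mark when a gene passed the threshold, and differences in timing between members were not tested. Gata2 was called higher from day 4 to day 6. On day 0 the members other than Pecam1 were at or below 5.06 TPM in each of the 3 libraries. Kdr, the VEGF receptor of blood and endothelial mesoderm, was at 1.22, 0.309 and 0.0545 TPM on day 0 and at 0.174, 0.389 and 0.517 on day 4, then at 33.6 and 22.9 on day 6 and 43.4, 42.6 and 26.1 on day 8. All day 6 and day 8 libraries therefore stood above all earlier ones, and day 6 lay within the range of day 8 apart from its lower library. The log2 fold change of Kdr against day 0 was 4.31 (SE 0.57, limma adjusted p = 1.72e-06) on day 6 and 4.69 (SE 0.51, adjusted p = 2.47e-08) on day 8.

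**Figure D1:**
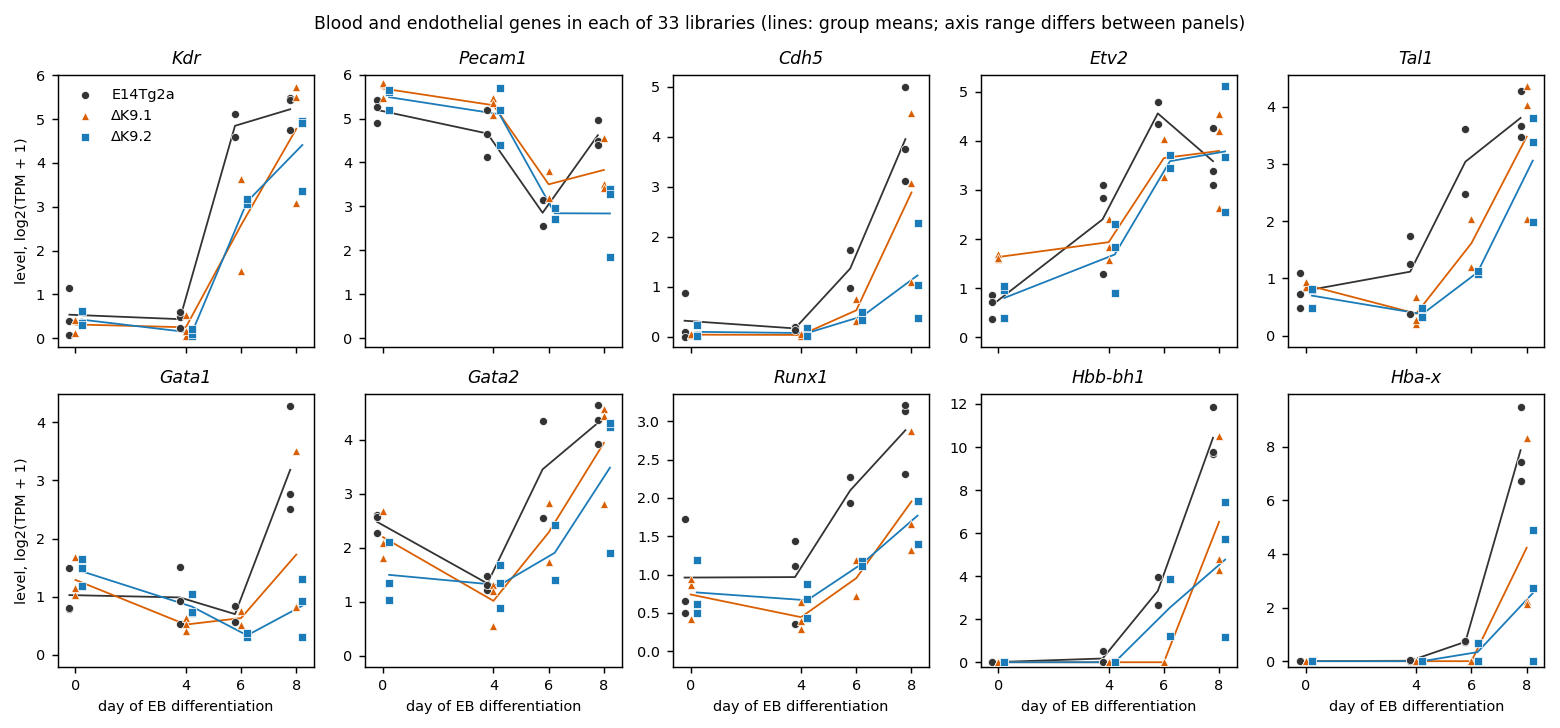
Level of each of the 10 genes as log2(TPM + 1) against the day of EB differentiation (day 0 is undifferentiated), with 1 point per library (black circles E14Tg2a, orange triangles ΔK9.1, blue squares ΔK9.2) and lines through the group means. In E14Tg2a, Kdr and Etv2 are up by day 6 and Cdh5, Gata1, Hbb-bh1 and Hba-x mainly by day 8, when 5 of the 6 clone libraries lie below all E14Tg2a libraries for Gata1 and both globins, and replicate 2 of ΔK9.1 lies within their range.

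Etv2, the ETS factor that starts the endothelial and blood programme, was the first member called higher, and the only one of those that rose whose highest mean in E14Tg2a came before day 8. It was at 0.821, 0.298 and 0.654 TPM on day 0, at 1.42, 7.54 and 6.10 on day 4, at 26.5 and 19.2 on day 6 and at 18.2, 9.46 and 7.62 on day 8. Both day 6 libraries lay above all day 8 libraries, and the day 6 mean was 194% of the day 8 mean, although the step from day 6 to day 8 (log2 fold change -0.97, SE 0.59, limma adjusted p = 0.239) did not pass the test. On day 4, Etv2 was the 1 member of 10 called against day 0 (log2 fold change 1.74, SE 0.53, limma adjusted p = 0.0157), where 3.67% of all genes were called higher and 4.07% lower. That call was lost in a fit of only the groups compared (adjusted p = 0.0619) and without E14Tg2a replicate 2 of day 0 (0.0617), replicate 2 of day 4 (0.0841) or replicate 3 of day 4 (0.0733).

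Tal1, a helix-loop-helix factor needed for all blood, was at 0.394, 0.651 and 1.13 TPM on day 0, at 11.2 and 4.53 on day 6 and at 11.7, 18.4 and 10.02 on day 8. Gata2, a GATA factor of blood progenitors, was already at 5.06, 3.82 and 4.91 TPM in undifferentiated cells, stood at 1.79, 1.33 and 1.48 on day 4, and reached 19.3 and 4.87 on day 6 and 23.9, 19.7 and 14.1 on day 8. The day 4 libraries of Gata2 all lay below the day 0 libraries, but that difference did not pass the test (log2 fold change -1.14, limma adjusted p = 0.118), although a fit of only these groups called it (0.0110). Runx1, needed for definitive blood cells, went from 2.31, 0.574 and 0.414 TPM on day 0 to 3.81 and 2.80 on day 6 and 7.74, 8.24 and 3.96 on day 8. Against day 0, Tal1 was called higher on day 6 with a log2 fold change of 2.27 (SE 0.52, limma adjusted p = 0.00102) and Runx1 with 1.14 (SE 0.39, adjusted p = 0.0233), while Gata2 was not (0.97, adjusted p = 0.206). On day 8 all 3 were called, with log2 fold changes of 3.04 (SE 0.46, limma adjusted p = 3.80e-06) for Tal1, 1.83 (SE 0.53, adjusted p = 0.00472) for Gata2 and 1.92 (SE 0.35, adjusted p = 4.53e-05) for Runx1.

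Cdh5, the cadherin of endothelial junctions, was at or below 0.843 TPM on day 0 and at or below 0.141 on day 4, then at 2.36 and 0.982 on day 6 and at 12.4, 30.8 and 7.68 on day 8. Its day 6 mean was 9.84% of its day 8 mean, against 75.7% for Kdr, 63.0% for Gata2, 58.8% for Tal1 and 49.8% for Runx1. Some of these shares leaned on 1 library. Without replicate 2 of day 6 they were 25.3% for Gata2, 33.9% for Tal1 and 5.78% for Cdh5, without replicate 3 of day 6 Gata2 was at 100.6%, and without replicate 2 of day 8 Cdh5 was at 16.6%. Gata1, the red cell and megakaryocyte factor, was at 1.81, 0.728 and 0.752 TPM on day 0, no higher on days 4 and 6 than 1.84 TPM, and at 4.68, 18.5 and 5.78 on day 8. Its day 6 mean was 6.56% of its day 8 mean, or 12.1% without replicate 2 of day 8. From day 6 to day 8, Cdh5 was called higher with a log2 fold change of 2.58 (limma adjusted p = 0.00255) and Gata1 with 2.48 (adjusted p = 0.00158), and a fit of only these groups lost both (0.0697 and 0.0685).

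The globins reached the highest levels of the 10 members, nearly all of it between day 6 and day 8. Hbb-bh1, an embryonic beta-type globin, was listed at 0 in all 9 undifferentiated libraries, at 0, 0 and 0.431 TPM in E14Tg2a on day 4, at 14.5 and 5.38 on day 6, and at 809, 3735 and 866 on day 8. Hba-x, the embryonic zeta globin of the alpha type, was likewise listed at 0 on day 0, at 0, 0 and 0.0323 TPM on day 4, at 0.622 and 0.680 on day 6, and at 169, 717 and 104 on day 8. Replicate 2 stood far above the other 2 libraries of day 8 for both globins, and it was also the highest for Gata1, Cdh5, Tal1, Runx1 and Pecam1. On day 8 the mean of Hbb-bh1 in E14Tg2a lay at the percentile 99.4 of all listed genes, that of Hba-x at 97.5 and that of Kdr at 75.9. From day 6 to day 8 the log2 fold change was 7.12 (SE 1.32, limma adjusted p = 0.000427) for Hbb-bh1 and 7.15 (SE 1.18, adjusted p = 0.000143) for Hba-x. Without E14Tg2a replicate 2 of day 8 these were 6.40 and 6.34, and for Hbb-bh1 6.48 without replicate 3 and 7.76 without replicate 2 of day 6. Against day 0, where both were listed at 0 and no fold is given, they were called higher on day 8 (adjusted p = 4.36e-08 and 5.87e-07).

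Pecam1 took the opposite course first. It was at 42.1, 37.4 and 28.8 TPM in undifferentiated E14Tg2a cells, at 35.8, 24.0 and 16.6 on day 4, at 7.86 and 4.91 on day 6, and at 21.5, 30.2 and 20.1 on day 8. The day 6 libraries lay below all others, so the gene fell from day 0 to day 6 by 2.34 on the log2 scale (SE 0.40, limma adjusted p = 4.76e-05) and rose again from day 6 to day 8 by 1.76 (adjusted p = 0.00228). Without E14Tg2a replicate 3 of day 6 the later rise was no longer called (adjusted p = 0.0597), nor was that of Cdh5 (0.0588). Day 8 against day 0 gave -0.58 (SE 0.36, adjusted p = 0.172), which hides both steps.

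Counted over the 10 members in E14Tg2a, 5 were called higher and 1 lower on day 6 against day 0, where 8.95% and 8.69% of all genes were called. On day 8, 9 were called higher, where 15.9% of all genes were called higher and 11.0% lower. On day 6 the 5 were Kdr, Etv2, Tal1, Runx1 and Hbb-bh1, and Pecam1 was the one lower. The call of Runx1 was lost without replicate 2 (limma adjusted p = 0.0812) or 3 (0.0998) of day 0 or replicate 2 (0.168) or 3 (0.0538) of day 6, and in a fit of only these groups (0.0935). That of Hbb-bh1 was lost without any 1 of the 5 libraries (0.0819 to 0.265), and that of Tal1 without replicate 2 of day 6 (0.0512). From day 4 to day 6, Kdr, Etv2, Tal1, Gata2 and Runx1 were called higher (background 5.19%) and Pecam1 lower (4.14%). Without E14Tg2a replicate 2 of day 6 Kdr was the only one of the 5 still called. Without replicate 1 of day 4, Etv2 (0.0702) and Tal1 (0.0549) were lost. Runx1 was lost without replicate 2 (0.152) or 3 (0.0517) of day 4 or replicate 3 of day 6 (0.0816). A fit of only these groups lost Etv2 (0.0753), Tal1 (0.0762), Gata2 (0.0649) and Runx1 (0.0957) and gained Cdh5 (0.0381) and Hbb-bh1 (0.0200). A pseudocount of 0.1 also gained Cdh5 (0.0290) and Hbb-bh1 (0.00646). From day 6 to day 8, Pecam1, Cdh5, Gata1, Hbb-bh1 and Hba-x were called higher (background 6.53%) and none lower (2.73%). On day 8 against day 0 the median log2 fold change of the members was 2.98 and that of all genes 0.05. Leaving out any 1 library of these groups left 9 members called.

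Both clones also raised most of these genes by day 8. Kdr in ΔK9.1 was at 0.329, 0.330 and 0.0883 TPM on day 0 and at 44.5, 52.2 and 7.53 on day 8, and in ΔK9.2 at 0.547, 0.264 and 0.240 and then at 30.2, 29.1 and 9.25. In ΔK9.1, 8 members were called higher on day 8 than on day 0 (background 10.9%), namely Kdr, Cdh5, Etv2, Tal1, Gata2, Runx1, Hbb-bh1 and Hba-x, and Pecam1 was called lower (background 10.0%). In ΔK9.2, 7 were called higher (background 11.0%), all of these but Cdh5, and Pecam1 lower (background 11.3%). Gata1 passed in neither clone, with a log2 fold change of 0.44 (limma adjusted p = 0.479) in ΔK9.1 and of -0.59 (adjusted p = 0.318) in ΔK9.2, and neither did Cdh5 in ΔK9.2 (1.13, adjusted p = 0.0797). The fall of Pecam1 from day 0 to day 8 was 1.85 on the log2 scale in ΔK9.1 (adjusted p = 0.000126) and 2.65 in ΔK9.2 (adjusted p = 1.00e-06). Some of these calls rested on single libraries. In ΔK9.1, Gata2 was lost without replicate 1 of day 8 (adjusted p = 0.0526) and Runx1 without replicate 2 of day 8 (log2 fold change 0.75, adjusted p = 0.0784). In ΔK9.2, Runx1 was lost without replicate 2 or 3 of either day (log2 fold change 0.87 to 0.93), and with median ratio scaling its log2 fold change was 0.9991, just under the threshold. Hba-x was lost without any 1 library of day 0 (adjusted p = 0.0861 to 0.0899) or without replicate 2 (0.319) or 3 (0.101) of day 8. Cdh5 was gained in that clone without replicate 1 of day 8 (1.55, adjusted p = 0.0283) and with a pseudocount of 0.1 (0.00541). A fit of only the groups compared lost Runx1 (limma adjusted p = 0.0634) and Hba-x (0.0915) in ΔK9.1 and Gata2 (0.0637) and Hba-x (0.121) in ΔK9.2.

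On day 0 a gene was called only with an adjusted p under 0.05 and a log2 fold change past 0.3 in the same direction in both clones, in a fit of the 9 undifferentiated libraries. No member was called by that rule, beside 0.00612% of genes higher and 0.0429% lower. The study's own test on counts, with the same thresholds, called far more genes. The lack of a call here therefore says little about the members. At an unadjusted p under 0.05, limma had Pecam1 and Etv2 for ΔK9.1, beside 29.6% of all genes, and Gata2 for ΔK9.2, beside 9.68%. Etv2 stood at 2.03, 2.23 and 2.05 TPM in ΔK9.1, above all E14Tg2a libraries (log2 fold change 0.98, SE 0.19, adjusted p = 0.0175), and at 0.317, 0.956 and 1.05 in ΔK9.2 (0.14, adjusted p = 0.855). Pecam1 and Gata1 were higher in all 6 clone libraries than in the E14Tg2a library of the same replicate number, a pattern that 15.2% of all genes showed. Gata1 stood at 118% to 249% of that library, with log2 fold changes of 0.26 in ΔK9.1 (limma adjusted p = 0.533) and 0.41 in ΔK9.2 (0.650). For Pecam1 in ΔK9.1 the log2 fold change was 0.49, with a limma adjusted p of 0.114 that came to 0.00629 with the replicate block, and in ΔK9.2 it was 0.29 (0.656, and 0.106 with the block).

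On day 4 no member was called between the clones and E14Tg2a, beside 0.0857% of all genes higher and 0.710% lower, and limma gave no member an unadjusted p under 0.05 where 15.5% of all genes had one. Tal1 was at 0.293, 2.32 and 1.37 TPM in E14Tg2a, at 0.152, 0.595 and 0.208 in ΔK9.1 and at 0.248, 0.249 and 0.399 in ΔK9.2. It was lower in all 6 clone libraries than in the E14Tg2a library of the same number, as was Cdh5 at levels below 0.2 TPM, and 16.4% of all genes showed this. The log2 fold change of Tal1 was -0.74 (limma adjusted p = 0.389). Pecam1 was higher in all 6 pairs, as 6.41% of genes were, with a log2 fold change of 0.54 (adjusted p = 0.426).

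On day 6 Kdr was lower in the clones, at 11.4 and 1.88 TPM in ΔK9.1 and 7.35 and 8.04 in ΔK9.2 beside 33.6 and 22.9 in E14Tg2a. Every clone library lay below both E14Tg2a libraries, and the mean of the clones against E14Tg2a gave a log2 fold change of -2.00 (SE 0.54, limma adjusted p = 0.0356), the only member called, beside 1.37% of all genes called lower and 0.251% higher. Tal1 stood at 3.09 and 1.29 TPM in ΔK9.1 and at 1.11 and 1.19 in ΔK9.2 beside 11.2 and 4.53 in E14Tg2a, again without overlap. Its log2 fold change was -1.68 (SE 0.49, limma adjusted p = 0.0525), and a fit blocked on the replicate number called it (adjusted p = 0.0215), as it did for ΔK9.2 alone (0.0357, against 0.0856 without the block). Etv2 was at 15.4 and 8.61 TPM in ΔK9.1 and at 12.1 and 9.97 in ΔK9.2 beside 26.5 and 19.2, and Runx1 at 1.27 and 0.650 and at 1.26 and 1.16 beside 3.81 and 2.80. Neither passed the test (Etv2 -0.94, limma adjusted p = 0.419, and Runx1 -1.05, adjusted p = 0.120), although their groups did not overlap either.

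In all, 6 of the 10 members had every clone library below both E14Tg2a libraries on day 6 (Kdr, Cdh5, Etv2, Tal1, Runx1 and Hba-x), beside 19.6% of all genes, and 9 had each clone library below the E14Tg2a library of its own number, beside 25.9%. Pecam1 was the exception, with 1 of 4. Hba-x counted among the 6 at levels near the floor, with ΔK9.2 replicate 2 at 0.598 TPM beside 0.622 in the lower E14Tg2a library. Cdh5 stood between 0.242 and 0.685 TPM in the clones. Hbb-bh1 was listed at 0 in both ΔK9.1 libraries, and stood at 13.5 and 1.33 TPM in ΔK9.2 and at 14.5 and 5.38 in E14Tg2a. With 2 libraries a group the call of Kdr was fragile. It was lost in a fit of only the 3 groups compared (limma adjusted p = 0.196), with a pseudocount of 0.1 (0.127), and without E14Tg2a replicate 2 (0.421), E14Tg2a replicate 3 (0.116), ΔK9.1 replicate 3 (log2 fold change -1.47, adjusted p = 0.212), ΔK9.2 replicate 2 (0.0969) or ΔK9.2 replicate 3 (0.0715). With a block for the replicate number within each day, an alternative chosen after the data were seen, Kdr, Tal1, Gata2 and Runx1 were called (adjusted p = 0.00178, 0.00201, 0.0108 and 0.0253; background 2.21%). A blocked fit of only the day 6 libraries, also chosen after the data were seen, called none of them (0.185, 0.151, 0.142 and 0.140).

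**Figure D2:**
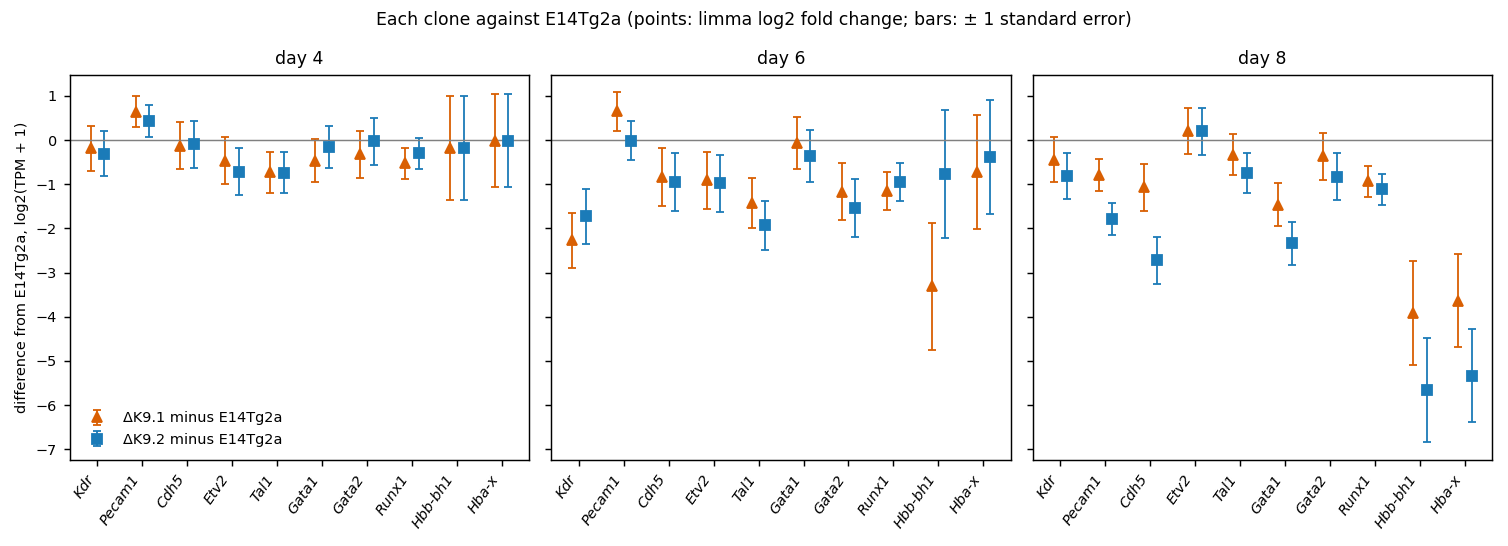
Difference of each clone from E14Tg2a in log2(TPM + 1) on days 4, 6 and 8 for the 10 genes (orange triangles ΔK9.1, blue squares ΔK9.2; bars are 1 standard error to either side from the limma fit). On day 6 Kdr is at -2.27 (ΔK9.1) and -1.73 (ΔK9.2), and on day 8 the globins lie furthest below 0 while Etv2 lies at 0.21 and 0.20; on day 4 both globins in both clones, and on day 6 both in ΔK9.1, were listed at 0.

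On day 8, 6 members were called lower in the mean of the clones than in E14Tg2a, beside 3.42% of all genes called lower and 0.826% higher. These were Pecam1 (59.5% of the E14Tg2a mean in ΔK9.1 and 28.9% in ΔK9.2), Cdh5 (58.7% and 10.2%), Gata1 (41.0% and 8.99%), Runx1 (50.2% and 37.0%), Hbb-bh1 (27.4% and 4.14%) and Hba-x (32.9% and 3.43%). Kdr (93.0% and 61.2%), Etv2 (128% and 143%), Tal1 (94.5% and 63.2%) and Gata2 (85.6% and 68.4%) were not called. The means rested much on replicate 2. Without replicate 2 of ΔK9.1, that clone was at 25.3% of E14Tg2a for Cdh5, 8.14% for Gata1, 27.5% for Runx1, 1.25% for Hbb-bh1 and 1.08% for Hba-x. Without replicate 2 of E14Tg2a it was at 99.3% for Cdh5, 75.9% for Gata1, 59.1% for Hbb-bh1 and 79.6% for Hba-x. For ΔK9.2 the shares of Cdh5, Gata1 and the globins lay between 0.857% and 5.91% without its own replicate 2 and between 8.30% and 17.2% without that of E14Tg2a. Etv2 in ΔK9.2 was at 71.1% without replicate 1 of that clone. The median log2 fold change of the 10 members was -1.15 and that of all genes -0.0035.

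Of the endothelial surface genes, Pecam1 was at 10.4, 22.7 and 9.69 TPM in ΔK9.1 and at 2.61, 9.49 and 8.69 in ΔK9.2 on day 8, beside 21.5, 30.2 and 20.1 in E14Tg2a. Only replicate 2 of ΔK9.1 reached into the range of E14Tg2a, and the log2 fold change was -1.28 (SE 0.31, limma adjusted p = 0.00471). Cdh5 stood at 7.43, 21.3 and 1.15 TPM in ΔK9.1 and at 0.303, 3.84 and 1.05 in ΔK9.2, beside 12.4, 30.8 and 7.68. ΔK9.2 lay wholly below E14Tg2a and ΔK9.1 overlapped it, with a log2 fold change of -1.89 (SE 0.46, adjusted p = 0.00498). Kdr did not pass, with a log2 fold change of -0.63 (95% confidence interval -1.55 to 0.28, adjusted p = 0.352); its replicate 3 was the lowest in every line, at 26.1, 7.53 and 9.25 TPM.

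Of the transcription factors, Gata1 stood at 0.795, 10.3 and 0.778 TPM in ΔK9.1 and at 0.238, 1.46 and 0.903 in ΔK9.2, beside 4.68, 18.5 and 5.78 in E14Tg2a. Replicate 2 was the highest of each line, and it alone brought ΔK9.1 into the range of E14Tg2a. The log2 fold change of Gata1 was -1.90 (SE 0.42, limma adjusted p = 0.00218). Runx1 stood at 2.16, 6.35 and 1.50 TPM in ΔK9.1 and at 1.62, 2.87 and 2.89 in ΔK9.2, beside 7.74, 8.24 and 3.96, with a log2 fold change of -1.02 (SE 0.30, adjusted p = 0.0191), just past the threshold of 1. The other 3 did not pass. Their log2 fold changes were 0.20 for Etv2 (95% confidence interval -0.74 to 1.14, adjusted p = 0.813), -0.54 for Tal1 (-1.36 to 0.29, adjusted p = 0.383) and -0.60 for Gata2 (-1.55 to 0.35, adjusted p = 0.402). For Etv2 the highest library of day 8 was replicate 1 of ΔK9.2, at 33.6 TPM.

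The embryonic globins showed the widest gap. Hbb-bh1 stood at 18.5, 1439.5 and 26.7 TPM in ΔK9.1 and at 1.26, 172 and 51.1 in ΔK9.2, beside 809, 3735 and 866 in E14Tg2a. Hba-x stood at 3.73, 319 and 3.37 TPM in ΔK9.1 and at 0, 28.3 and 5.66 in ΔK9.2, beside 169, 717 and 104. For both, replicate 2 of ΔK9.1 lay within the range of E14Tg2a and the other 5 clone libraries lay below all E14Tg2a libraries. On the log2(TPM + 1) scale Hbb-bh1 was 27.5-fold lower in the clones (log2 fold change -4.78, SE 1.02, limma adjusted p = 0.00170) and Hba-x 22.4-fold lower (-4.49, SE 0.91, adjusted p = 0.00114). These sizes leaned on single libraries. For Hbb-bh1 the fold was 16.7 without E14Tg2a replicate 2, 54.8 without ΔK9.1 replicate 2, 14.8 without ΔK9.2 replicate 1 and 43.7 without ΔK9.2 replicate 2. For Hba-x it was 12.8, 45.6 and 14.4 without the first 3 of these, and all of these values remained called.

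These day 8 differences moved with the replicate number, as the plot joined by number shows. Each of the 6 clone libraries lay below the E14Tg2a library of its own number for Pecam1, Cdh5, Gata1, Runx1, Hbb-bh1 and Hba-x, beside 18.7% of all genes, while Gata2 was lower in 5 of 6, Kdr and Tal1 in 4 of 6 and Etv2 in 2 of 6. Without regard to number, no member had all clone libraries below all E14Tg2a libraries, beside 7.99% of all genes. In a fit of only the 9 libraries of day 8 all 6 calls were lost (limma adjusted p between 0.118 and 0.196). The same fit blocked on the number, chosen after the data were seen, had a background of 2.90%, and in it Pecam1 (0.0391), Cdh5 (0.0405), Gata1 (0.0283), Hbb-bh1 (0.0324) and Hba-x (0.0278) were called and Runx1 was not (0.0757). Without E14Tg2a replicate 2, the library with the highest globins, the calls of Pecam1 (-1.11, adjusted p = 0.0594), Cdh5 (-1.37, 0.0972), Gata1 (-1.35, 0.0605) and Runx1 (-0.86, 0.145) were lost and the globins remained called. Runx1 was also lost without replicate 1 of E14Tg2a (-0.90, adjusted p = 0.0726), ΔK9.1 (-0.95) or ΔK9.2 (-0.93), and without replicate 3 of ΔK9.1 (-0.86), with a pseudocount of 0.1 (-1.27, adjusted p = 0.0874) and with median ratio scaling (-0.99).

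**Figure D3:**
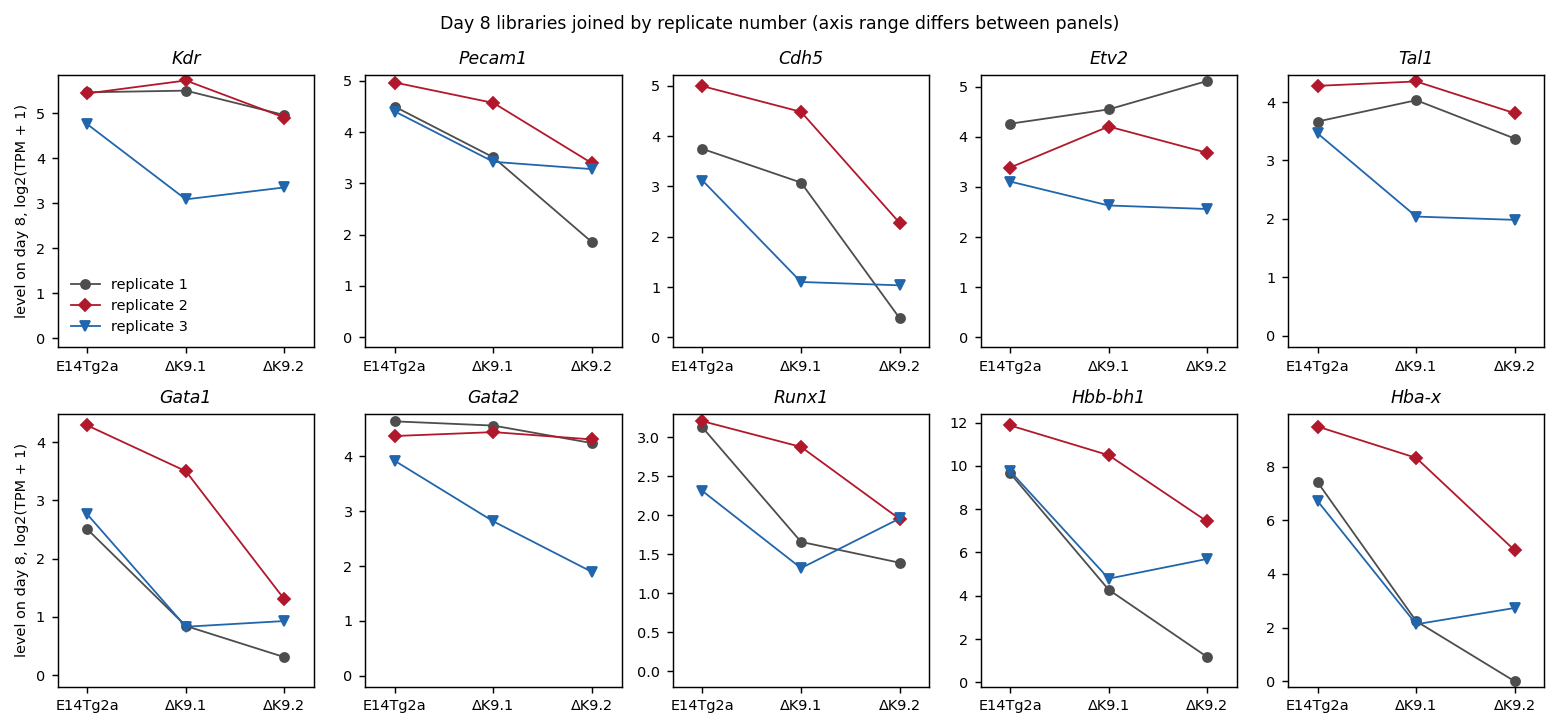
Level of each of the 10 genes on day 8 as log2(TPM + 1) in E14Tg2a, ΔK9.1 and ΔK9.2, with the libraries of 1 replicate number joined by a line (grey circles replicate 1, red diamonds replicate 2, blue triangles replicate 3). For Pecam1, Cdh5, Gata1, Runx1 and both globins every line starts highest at E14Tg2a, and replicate 2 is the highest of each line for the globins; for Kdr, Tal1 and Gata2 the gap lies mainly in replicate 3.

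Taken 1 at a time, the clones passed the test against E14Tg2a for different numbers of members. In ΔK9.1 on day 8, 3 members were called lower (background 2.41%): Gata1 with a log2 fold change of -1.46 (limma adjusted p = 0.0493), Hbb-bh1 with -3.91 (0.0317) and Hba-x with -3.64 (0.0250). Pecam1 (-0.79, adjusted p = 0.161), Cdh5 (-1.07, 0.207) and Runx1 (-0.93, 0.0875) did not pass in that clone. In ΔK9.2, 6 were called lower (background 4.24%), at -1.78 for Pecam1 (adjusted p = 0.00139), -2.72 for Cdh5 (0.00111), -2.34 for Gata1 (0.00167), -1.11 for Runx1 (0.0299), -5.66 for Hbb-bh1 (0.00183) and -5.33 for Hba-x (0.00118). Both comparisons share the E14Tg2a libraries. Set against each other, the clones gave no call for any member on day 8, and none for any gene (background 0%); at an unadjusted p under 0.05 limma had Pecam1 and Cdh5, beside 6.06% of all genes. Cdh5 was 1.66 higher on the log2 scale in ΔK9.1 than in ΔK9.2 (SE 0.53, adjusted p = 0.679), and 2.55 higher without ΔK9.1 replicate 3 (adjusted p = 0.00765). With a block for the number within each day its adjusted p was 0.0440.

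The change from day 0 to day 8 was also compared between the clones and E14Tg2a, as an interaction of line and day, which asks whether a gene rose or fell by a different amount. Here 4 members were called lower, beside 2.55% of all genes called lower and 0.508% higher. Pecam1 differed by -1.67 (SE 0.44, limma adjusted p = 0.0239), since it ended further below its undifferentiated level in the clones. Gata1 differed by -2.23 (SE 0.59, adjusted p = 0.0244), with a rise called in E14Tg2a only. For Hbb-bh1 (-4.78, adjusted p = 0.0470) and Hba-x (-4.49, adjusted p = 0.0373) the value equals that of day 8 alone, since both were listed at 0 in every undifferentiated library. Cdh5 did not pass (-1.64, adjusted p = 0.130) and nor did Runx1 (-0.81, adjusted p = 0.269). In ΔK9.2 alone, Pecam1 (-2.07, adjusted p = 0.0319) and Gata1 (-2.75, adjusted p = 0.0331) were called (background 1.55%). The fit with the replicate block (background 2.45%) also called Cdh5 (0.0367), Hbb-bh1 (0.0310) and Hba-x (0.0272), against 0.0716, 0.0658 and 0.0529 without it. No member was called for ΔK9.1 alone (background 1.83%). A fit of only these groups lost all 4 calls (adjusted p between 0.0585 and 0.151). Without E14Tg2a replicate 2 of day 8 they were lost too, with adjusted p of 0.109 for Pecam1, 0.140 for Gata1, 0.190 for Hbb-bh1 and 0.174 for Hba-x. Pecam1 and Gata1 were also lost without E14Tg2a replicate 2 (0.0530 and 0.0711) or 3 (0.0875 and 0.0777) of day 0. Hbb-bh1 was lost without any of 14 of the 18 libraries and Hba-x without any of 12. Cdh5 was gained without ΔK9.1 replicate 2 of day 8 (-2.04, adjusted p = 0.0186).

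Marker genes of other cells in the EBs also differed between the clones and E14Tg2a on day 8. The summed level of 6 naive pluripotency genes on day 8 was lowest at 42.4, in the median 54.4 and highest at 57.4 TPM in E14Tg2a, while ΔK9.1 had 99.3, 113 and 255 TPM and ΔK9.2 had 111, 143 and 180, and 3 of the 6 were called higher in the clones (background 0.826% higher and 3.42% lower for this and the next 3 lists). The list includes Nanog, whose locus carries the deletion. Its day 8 mean was 98.9 TPM for ΔK9.1, 104.8 for ΔK9.2 and 26.7 for the wild type, so the sum leans on it. Esrrb (log2 fold change 1.25) and Zfp42 (1.36) were the others called higher. Prdm14 was higher (0.65) but not called. Klf4 (-0.96, limma adjusted p = 0.00138) and Tfcp2l1 (-0.29, adjusted p = 0.497) were lower, neither past the fold threshold. The naive sum was highest in replicate 3 of each clone, the library in which Kdr, Tal1 and Gata2 were lowest in that clone. In E14Tg2a, replicate 3 had the lowest naive sum (42.4 TPM) and also the lowest Kdr, Tal1 and Gata2. The members called lower on day 8 were each lowest in replicate 1 in ΔK9.2. For 10 visceral endoderm genes the lowest, median and highest sums were 291, 341 and 415 TPM in E14Tg2a, while ΔK9.1 had 19.3, 42.0 and 97.9 and ΔK9.2 had 37.5, 53.1 and 53.6, with 7 of 10 called lower. Early mesoderm genes gave 55.5, 60.0 and 152 TPM in E14Tg2a, then 76.8, 119 and 199 (ΔK9.1) and 97.7, 125 and 521 (ΔK9.2; 4 of 8 called higher). Cardiac genes gave, in the same order, 617, 839 and 849, then 119, 461 and 474, and 276, 285 and 566 (5 of 8 called lower). Most of the cardiac sum in E14Tg2a was the mesoderm factor Hand1, with a mean of 582 TPM. Hand1 was not called (log2 fold change -1.19, limma adjusted p = 0.0599). Of the listed genes, the cardiac Myh6, called lower, and Gata4 of the visceral endoderm list, not called, lie in the stretch of chromosome 14 described above. Without them 4 of 7 cardiac and 7 of 9 visceral endoderm genes were called lower. No gene of the naive or visceral endoderm list was at 0 in a whole group of day 8. The part of these other cells in the members' differences was not tested.

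Other genes of the endothelial and blood pathways, 87 listed of 106 in 6 lists, were looked at in the same fit. Genes that reached a mean of 1 TPM in no group are not listed, so a gene that stayed low throughout is not counted: the erythroid list kept 16 of 21 genes, the blood surface and myeloid list 5 of 15 (without Ptprc, Csf1r and Mpo), the endothelial receptors 30 of 33 and the blood factors 13 of 14. In E14Tg2a, 63 of the 87 were called higher on day 8 than on day 0 and 7 lower, beside 15.9% and 11.0% of all genes, with a median log2 fold change of 1.80 beside 0.05 over all genes. The plot of the lists shows each gene. Of 30 endothelial receptors and surface genes 23 were higher and 4 lower. Nrp1, a co-receptor for VEGF, was at 0.219 TPM on day 0 and 100.5 on day 8 (log2 fold change 6.23). Aplnr, the apelin receptor, was listed at 0 and then at 25.4 TPM, and Ramp2, a receptor partner for adrenomedullin, had a log2 fold change of 3.54. Of 15 endothelial transcription factors 14 were higher, led by Ets1 (3.72), Sox17 (3.39) and the Notch target Hey2 (3.20). Of 13 blood transcription factors 8 were higher, led by Lmo2, the partner of Tal1 (0.683 to 25.2 TPM, 3.82), the Gata1 partner Zfpm1 (3.40) and Gfi1b (3.26). Of 16 erythroid genes 13 were higher and 1 lower, led by the adult-type globins Hba-a1 (0.125 to 183 TPM), Hba-a2 and Hbb-bs (listed at 0, then 51.0 TPM). Hba-a1 and Hba-a2 are near-identical copies, as are Hbb-bs and Hbb-bt, so how reads were split within each pair is uncertain. Of 8 VEGF and angiopoietin ligands 4 were higher, with Pgf (3.28), Angpt1 (2.37) and Angpt2 (1.79) in front. Of 5 blood surface and myeloid genes 1 was higher, the platelet integrin Itga2b (1.83), and 2 were lower, Laptm5 (-2.90) and Coro1a (-1.37).

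Between the clones and E14Tg2a on day 8, 33 of the 87 were called lower and 1 higher, beside 3.42% and 0.826% of all genes, with a median log2 fold change of -0.83 beside -0.0035 over all genes. By list, 12 of 30 endothelial receptors and surface genes, 3 of 15 endothelial transcription factors (Sox7, not called, lies in the chromosome 14 stretch), 4 of 13 blood transcription factors, 9 of 16 erythroid genes, 4 of 8 ligands and 1 of 5 blood surface genes were lower. Nrp1 stood at 25.9 ± 23.6 TPM in ΔK9.1 and 14.2 ± 5.64 in ΔK9.2 beside 100.5 ± 58.9 in E14Tg2a (SD, n = 3), with a log2 fold change of -2.47 (limma adjusted p = 0.000648). The surface sialomucin Cd34 (-2.02, adjusted p = 0.000429) and the angiopoietin receptor Tek (-1.99, adjusted p = 0.000106) followed, and of its ligands Angpt1 (-1.44) and Angpt2 (-1.39) were lower too. Sox17 (-2.00, adjusted p = 0.04999), Sox18 (-1.54) and Erg (-1.06) were the genes of the endothelial factor list called lower. Which cells carried Sox17 cannot be told from bulk RNA, and in undifferentiated E14Tg2a it already stood between 1.07 and 14.9 TPM. Of the blood factors, the erythroid activator Klf1 (-1.88, adjusted p = 0.00153), Gfi1b (-1.70) and Nfe2 (-1.67) were lower, and so was Itga2b (-1.17). The embryonic beta-type globin Hbb-y stood at 61.2 ± 73.3 TPM in E14Tg2a, against 8.22 ± 13.6 for ΔK9.1 and 1.23 ± 1.70 for ΔK9.2 (-3.76, adjusted p = 0.000352), beside Hba-a1 (-4.15) and Hba-a2 (-4.08). The single gene higher was Apln, the ligand of Aplnr, at 1.86 ± 1.59 TPM in E14Tg2a, against 6.05 ± 2.60 for ΔK9.1 and 9.82 ± 8.54 for ΔK9.2 (1.56, adjusted p = 0.00518). On day 6, 5 of the 87 were lower and none higher, beside 1.37% and 0.251% of all genes. On day 4, 1 of the 87 was lower, beside 0.710% of all genes. Set against E14Tg2a on day 8, ΔK9.1 alone had 17 of the 87 lower (background 2.41%) and ΔK9.2 alone 41 (background 4.24%), with 1 higher in each (background 0.686% and 0.955%).

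**Figure D4:**
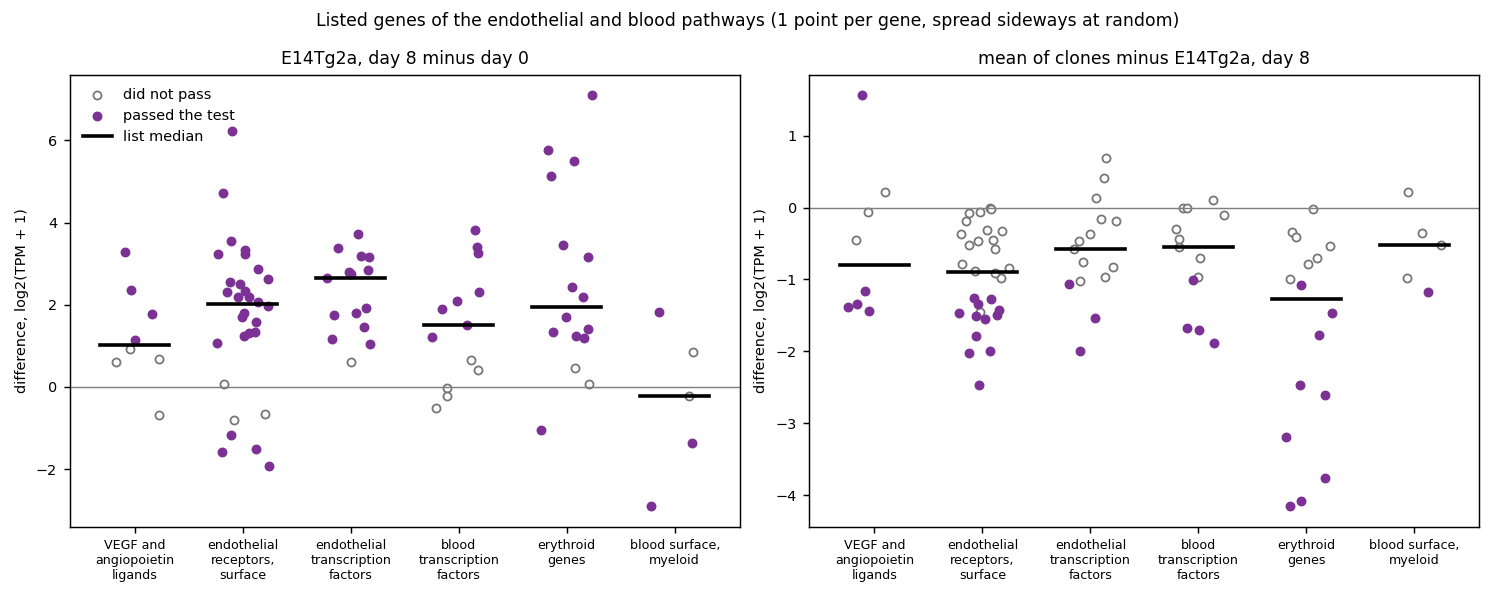
Differences in log2(TPM + 1) for the 87 listed genes of 6 pathway lists (none of the 10 members), 1 point per gene, filled where the gene passed the test, with a black bar at each list's median. On the left, day 8 minus day 0 in E14Tg2a, where 63 are called higher and 7 lower; on the right, the mean of the clones minus E14Tg2a on day 8, where 33 are called lower and 1 higher.

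Across the 12 group means of log2(TPM + 1), which share lines and days and are given without a test, the 9 members other than Pecam1 had Pearson correlations between 0.109 (Etv2 and Gata1) and 0.972 (Cdh5 and Hba-x). Kdr and Tal1 had 0.943, Runx1 and Cdh5 0.930, Tal1 and Hbb-bh1 0.907, Etv2 and Tal1 0.796 and Gata1 and Hbb-bh1 0.732, while Pecam1 ran against Etv2 (-0.871) and Kdr (-0.761). Among all genes, the profiles most like that of Kdr over the 12 groups were those of the mesoderm factors Foxf1 (0.994) and Hand1 (0.991) and of Zfp703 (0.993). Like Cdh5 ran Adam12, the endothelial adhesion gene Icam2 (both 0.992) and Mef2c (0.990). Like Gata1 ran the platelet integrin Itgb3 (0.973), P2rx1 (0.964) and Eepd1 (0.963), and like Hba-x the globins Hbb-bs (0.998) and Hba-a1 (0.996) and the factor Gata5 (0.995). Etv2 had Rrad (0.985), Tmem132a (0.982) and Rgs17 (0.981) nearest. Tal1 had Galnt1 (0.987), Zbtb46 (0.986) and Sox9 (0.984), and Gata2 had Rap2a (0.991), Dusp18 (0.973) and Osbpl5 (0.972). Nearest to Runx1 were Shroom1 (0.996), Cttn (0.984) and Krt8-ps (0.983), to Hbb-bh1 Csgalnact1 (0.992), Spin4 (0.987) and 5033428I22Rik (0.987), and to Pecam1 Scpep1 (0.970), Arhgef3 (0.967) and Selenbp1 (0.964). Ordered by mean level, neighbouring groups mostly overlapped. Of the 11 neighbouring pairs of groups, 9 overlapped in their libraries for Kdr, Etv2 and Tal1, 10 for Cdh5, Gata1, Runx1 and the globins, and all 11 for Pecam1 and Gata2. For Kdr the gaps lay between ΔK9.2 on day 8 and ΔK9.2 on day 6, and between the clones on day 6 and the undifferentiated and day 4 groups. Replicate 2 of ΔK9.1 on day 6 (11.4 TPM) stood above replicate 3 of ΔK9.2 on day 8 (9.25 TPM).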

How the data were processed

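The 33 libraries were strand-specific and made from poly-A RNA, per the labels. The submitters' processing notes name STAR, RSEM, DESeq and the mm10 assembly, without versions. The TPM values were computed and deposited by the authors, whose methods mention leaving out outliers of a principal component analysis beforehand; what was left out is not given in the sources used here. The 22 columns of the authors' own comparisons in the same table (p-values, fold changes) were not used. From the TPM, log2(TPM + 1) was fitted with limma 3.58.1 in R 4.3.3 (eBayes with trend, 12 groups, 33 libraries; the 9 libraries of day 0 for that comparison), since the study's test on counts needs counts. The procedure was tested on simulated data. Members and lists were chosen with earlier results of these data known. Pathway genes named are up to 3 per list and comparison with the largest called fold change; like profiles are the 3 highest correlations over 12 group means for each member with a group mean of at least 5 TPM. The lines were differentiated in parallel, so replicate numbers were taken to pair them: 33 same-number pairs of groups had a median correlation of 0.222 in their deviations from the group means (-0.0129 to 0.458, 31 over 0.1), and 60 different-number pairs -0.127. Deviations from a group mean sum to 0, which pushes different-number correlations down where same-number ones are positive. The value for different numbers is therefore not an independent contrast. The depth of each library is unknown beyond the approximate common read number in the study's methods. Gene positions matched for 98.6% of genes. Alternatives were another pseudocount (0.1), a minimum of 5 TPM, median ratio scaling, fewer libraries, a replicate block and leaving out each library.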

Additional observations from a re-analysis of the deposited data

Results flagged for a closer look

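For 4 members, beside 2.55% of all genes called lower, a test of the interaction of line and day called a difference between the clones and E14Tg2a in the change from day 0 to day 8: Pecam1 (-1.67 on the log2 scale, limma adjusted p = 0.0239), Gata1 (-2.23, adjusted p = 0.0244), Hbb-bh1 (-4.78, adjusted p = 0.0470) and Hba-x (-4.49, adjusted p = 0.0373). For each of the 4, all 6 clone libraries of day 8 lay below the E14Tg2a library of the same replicate number, as they did for 18.7% of all genes. All 4 calls were lost in a fit of only these groups (adjusted p between 0.0585 and 0.151) and without E14Tg2a replicate 2 of day 8 (0.109 to 0.190). Hbb-bh1 was lost without any of 14 of the 18 libraries.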

How the results depend on the processing

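With only the groups compared in the fit, the calls among the 10 members moved to 0 higher and 1 lower on day 4 against day 0 in E14Tg2a, to 3 higher from day 4 to 6 and 3 higher from day 6 to 8, and to 0 lower in the clones than in E14Tg2a, both on day 6 and day 8 and for the change from day 0 to 8. For the clones on day 6 the count called lower was 0 with a pseudocount of 0.1, 2 with a minimum of 5 TPM, 2 with median ratio scaling, 2 with the replicate block, 4 with the block within each day and 0 with the block in only the groups compared, and with a pseudocount of 0.1 the change from day 0 to 8 kept 2. Between the clones on day 8 the block within each day gave 1. The replicate block changed 5 of 200 member calls, each given above, and no other. Leaving out single libraries gave, in E14Tg2a, 0 to 1 higher on day 4, 2 to 4 on day 6 and 9 on day 8 against day 0, 1 to 4 from day 4 to 6 and 3 to 5 from day 6 to 8; 7 to 8 in ΔK9.1 and 5 to 8 in ΔK9.2 on day 8; 0 to 2 lower in the clones on day 6 and 2 to 6 on day 8, 0 to 5 for the change, and 0 to 1 between the clones. No member's called value changed sign. Depth could not be weighed, since TPM keep none, and day 6 rests on 2 libraries a group.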
